A study of Mus musculus with 12 samples.

Results

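The oligos described here are the 144 array probes whose sequence holds an uninterrupted run of at least 8 bases of the C-rich strand of the mammalian telomere repeat, CCCTAA read in any phase. They are 0.402% of the 35852 oligos on the array. A further 86 oligos hold a run of that length of the G-rich strand, TTAGGG, and served as the control set, and 0 oligos hold both. The rule reads only the deposited sequences. RNA from mouse spleen was labelled with Cy3 and hybridised against a universal reference RNA labelled with Cy5, on 12 Agilent arrays with 1 sample each and no dye swap. C57BL/6 mice aged 4 months gave 2 of the samples. Mice of the 564 Igi strain gave 3 samples at 4 months of age, 3 at 8 months and 4 at 12 months. All mice are labelled female, and C57BL/6 is the stated strain background of every group. In the 564 Igi strain the antibody loci hold knocked-in, already rearranged autoantibody genes, 1 for the heavy and 1 for the light chain. Their genotype label reads 564+/-, while the breeding text states that homozygous 564+/+ animals were used. Part of that colony drank water with ampicillin, metronidazole, neomycin and vancomycin, and the labels do not say which samples, if any, came from it. Nothing states that the samples of a group were separate animals, and the p-values cover the spread between samples only, which may be technical.

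Telomeres cap chromosome ends with a short repeat, whose G-rich strand runs towards the end and whose C-rich strand pairs with it. Telomeres are also transcribed, and the well-known transcript, TERRA, carries the G-rich repeat. A labelled strand that pairs with a C-rich oligo carries the G-rich repeat, and the reverse holds for the G-rich oligos. A cDNA made by reverse transcription is complementary to its template. The template of a cDNA with the G-rich repeat thus carries the C-rich repeat, the strand opposite to that of TERRA. Single copies and short stretches of the hexamer also occur inside genes, and an oligo may hold one by coincidence of its gene's sequence. The files do not pair oligos with genes, so the oligos are given by identifier, and the labelled tissue was not checked against marker genes.

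The sequences show what the members share and where the run lies. In every sequence printed here, read 5′ to 3′, the capitals mark the run. The 8 oligos with the longest C-rich runs (ties by lower identifier) come first, and no pair of them shares a stretch of 20 bases:
M400002502: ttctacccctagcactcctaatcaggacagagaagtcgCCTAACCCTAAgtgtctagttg
M200005312: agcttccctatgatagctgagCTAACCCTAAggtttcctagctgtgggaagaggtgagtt
M200011716: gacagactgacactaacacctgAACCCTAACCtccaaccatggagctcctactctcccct
M300010316: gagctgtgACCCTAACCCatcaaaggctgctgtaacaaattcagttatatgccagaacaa
M400004121: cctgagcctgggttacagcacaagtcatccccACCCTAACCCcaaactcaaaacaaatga
M400012527: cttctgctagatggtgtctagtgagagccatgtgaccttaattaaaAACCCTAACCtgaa
M400014090: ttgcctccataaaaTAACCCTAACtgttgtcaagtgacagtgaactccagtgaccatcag
M400014438: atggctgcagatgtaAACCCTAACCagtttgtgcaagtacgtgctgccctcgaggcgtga
The next 8 oligos show the largest range over the arrays (M200010292), a pair of runs of equal length in different phase (M200002760 and M200000086), and near-identical pairs (M400006882 with M400007173, M400011408 with M400012527 above, and M400000306 with M400008611). The phase examples and the pairs were chosen after their values were seen:
M200010292: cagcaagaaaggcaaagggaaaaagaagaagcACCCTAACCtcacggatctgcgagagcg
M200002760: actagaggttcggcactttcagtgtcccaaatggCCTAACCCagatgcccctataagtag
M200000086: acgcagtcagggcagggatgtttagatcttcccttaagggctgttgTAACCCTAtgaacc
M400006882: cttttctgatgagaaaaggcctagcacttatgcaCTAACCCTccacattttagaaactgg
M400007173: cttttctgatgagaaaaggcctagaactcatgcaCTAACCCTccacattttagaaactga
M400011408: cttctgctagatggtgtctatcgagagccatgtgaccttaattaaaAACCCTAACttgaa
M400000306: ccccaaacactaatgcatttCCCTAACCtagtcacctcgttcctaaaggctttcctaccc
M400008611: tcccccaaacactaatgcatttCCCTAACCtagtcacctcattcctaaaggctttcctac
The 4 control oligos with the longest G-rich runs are:
M400016534: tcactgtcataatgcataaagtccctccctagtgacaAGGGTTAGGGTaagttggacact
M200000031: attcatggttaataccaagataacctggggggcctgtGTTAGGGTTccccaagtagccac
M200000283: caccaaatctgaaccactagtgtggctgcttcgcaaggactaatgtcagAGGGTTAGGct
M200000657: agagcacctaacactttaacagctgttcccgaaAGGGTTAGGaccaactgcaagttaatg

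Of the 144 C-rich oligos, 113 hold a run of 8 bases, 21 of 9 bases, 9 of 10 bases and 1 of 11 bases. All 144 are 60 bases long and lie on 1 spot each. With each oligo divided into 3 equal sections, the midpoint of the run lies in the 5′ section of 43, in the middle section of 58 and in the 3′ section of 43. Their GC content had quartiles of 45.0% and 53.3%, the same as over all oligos, and the quartiles of the G-rich oligos were 45.0% and 51.7%. Identifiers beginning with M2, M3 and M4 belong to 36, 31 and 77 of the members and to 8170, 8154 and 19528 of all oligos. The members therefore come from every block of identifiers, and not from a single one. Among 144 members, 4 pairs share a stretch of 20 bases or more, so nearly all are separate sequences.

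An oligo was tested if its Cy3 signal was well above background on all arrays of at least 1 group, and 132 of the 144 C-rich and 64 of the 86 G-rich oligos were, among 26279 oligos tested. No member passed through 1 group alone, and 122 of the 144 were well above background on all 12 arrays. The 12 members not tested were mostly dim, with Cy3 intensities of 47.7 to 300.0 and a median of 58.8. Among them, M300022060, M400003044 and M400011408 had log2 ratios of 1.52, 1.06 and 0.78 on C57BL/6 replicate 1. The rest had -0.17 to 0.35 on that array. A value on every array was available for 130 C-rich, 63 G-rich and 25999 oligos in all. For these, the deviation is the oligo's log2 ratio of sample to reference on 1 array minus its own mean over the 12 arrays. Median Cy3 intensity per array lay between 101 and 148 and median Cy5 intensity between 98.0 and 133. The share of oligos with Cy3 well above background was 91.2% on 564 Igi 4 months replicate 1 and 69.4% to 75.9% on the rest. Slide 1 held 4 arrays of 564 Igi mice, and slides 2 and 3 held 3 arrays of 564 Igi mice and 1 C57BL/6 array each. The number of arrays limits the precision of every value.

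The C-rich oligos were high together on 4 arrays and low together on the other 8. Their median deviation was 0.69 on C57BL/6 replicate 1, 0.15 on C57BL/6 replicate 2, 0.25 on 564 Igi 8 months replicate 3 and 0.44 on 564 Igi 12 months replicate 4, on the log2 scale. On the other 8 arrays it lay between -0.26 and -0.14. The same medians lay between -0.06 and 0.04 for the G-rich oligos and between -0.02 and 0.01 for all oligos. The C-rich oligos thus stood high on both C57BL/6 arrays and on 1 array each of the 8-month and 12-month 564 Igi groups, and on no 4-month 564 Igi array. Median centring of each array in place of loess moved the median of all oligos to between -0.26 and 0.23 and turned the sign of the members' median on 3 arrays, among them C57BL/6 replicate 2 (-0.02). Relative to all oligos under that centring, the members' medians were 0.68, 0.15, 0.21 and 0.36 on the same 4 arrays and -0.30 to -0.11 on the others.

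The same 4 arrays appear when single members are counted. A deviation over 0.5 was reached by 77 of 130 C-rich oligos on C57BL/6 replicate 1 (59.2%, against 2.76% of all oligos). It was reached by 45 on C57BL/6 replicate 2 (34.6%, against 2.85%), by 40 on 564 Igi 8 months replicate 3 (30.8%, against 4.08%) and by 62 on 564 Igi 12 months replicate 4 (47.7%, against 5.37%). On the 4-month 564 Igi arrays 0, 2 and 0 members reached it, where 0.431%, 1.31% and 0.588% of all oligos did. Replicates 1 and 2 at 8 months had 1 and 0 such members (1.24% and 0.946% of all oligos), and replicates 1 to 3 at 12 months had 0, 0 and 1 (0.588%, 1.17% and 1.26%). C57BL/6 replicate 1 was the highest of the 12 arrays for 49.2% of the members, and 564 Igi 12 months replicate 4 for 20.8%. The members were far from uniform: the SD of the log2 ratio over the 12 arrays exceeded 0.5 in 53 of 130, with quartiles of 0.21, 0.40 and 0.79. Over all oligos the median SD was 0.16 and 793 of 25999 exceeded 0.5 (3.05%), and over the G-rich oligos it was 0.17 with 1 of 63 above 0.5.

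Slide and place on the slide were set beside these values. Of the 4 arrays on which the members stood high, 3 were on slide 3 and C57BL/6 replicate 1 was on slide 2. The 564 Igi arrays of 4 months were on slides 1 and 2, and none of them was on slide 3. The fourth array of slide 3, 564 Igi 12 months replicate 3, had a median deviation of -0.21, although it shared slide, genotype and age with replicate 4 at 0.44. C57BL/6 replicates 1 and 2 both lay at position 4 of their slides, and 564 Igi 12 months replicate 1, at position 4 of slide 1, had -0.18. Median Cy3 intensity was 119, 101, 110 and 101 on C57BL/6 replicates 1 and 2, 564 Igi 8 months replicate 3 and 12 months replicate 4, within the range of the others apart from the 2 values of 101, which were the lowest. The part of slide, position or array brightness in the result was not tested. Members in the upper and the lower part of the spot grid, divided at row 266, had a median SD over arrays of 0.41 (n = 61) and 0.38 (n = 69).

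The difference between arrays grew with the length of the run, up to 10 bases. Oligos whose longest C-rich run was under 5, 5, 6 or 7 bases had a median SD over arrays of 0.16, 0.16, 0.17 and 0.20. With runs of 8, 9 and 10 bases it was 0.35 (n = 101), 0.73 (n = 20) and 0.79 (n = 8). The share of oligos with an SD over 0.5 was 6.59% at 7 bases, just outside the rule, then 33.7% at 8 bases and 65.0% at 9, and it was 6 of 8 oligos at 10. On C57BL/6 replicate 1 the median deviation at 8, 9 and 10 bases was 0.56, 0.86 and 1.46, and on 564 Igi 8 months replicate 3 it was 0.18, 0.45 and 0.61. C57BL/6 replicate 2 had 0.06, 0.73 and 0.77, and 564 Igi 12 months replicate 4 had 0.34, 1.22 and 1.11. At 7 bases the median lay between -0.07 and 0.04 on all 12 arrays. C57BL/6 replicate 1 was already well above this at 8 bases, whereas the other three of these arrays rose most between 8 and 9 bases. For G-rich runs of 5 to 11 bases the median SD stayed between 0.16 and 0.21, with no such rise.

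The oligos with the longest runs show the size of the difference. M400014438, with a run of 10 bases, had log2 ratios of 2.24 and 2.38 in C57BL/6 and of -0.55, -0.10 and -0.13 in 564 Igi at 4 months. It had -0.35, 0.49 and 1.44 at 8 months and 0.78, -0.13, -0.56 and 2.19 at 12 months. Its raw Cy3 intensity was 1240 and 1370 on the C57BL/6 arrays and 135 to 196 on the 4-month 564 Igi arrays. On 564 Igi 12 months replicate 4 the Cy3 intensity was 1210, as high as in C57BL/6, while the other 12-month arrays lay between 131 and 324. M200011716, also with 10 bases, had log2 ratios of 2.77 and 2.98 in C57BL/6 and of 0.02, 0.43 and 0.26 in 564 Igi at 4 months. At 8 months it had 0.24, 0.95 and 1.80, and at 12 months 1.34, 0.27, -0.01 and 2.83. The C57BL/6 and 4-month 564 Igi arrays of both oligos do not overlap, whereas replicate 3 at 8 months and replicate 4 at 12 months lay well above the 4-month arrays of the same strain. M400014090 went from 0.01 on 564 Igi 12 months replicate 3 to 2.48 on C57BL/6 replicate 1. M400004121, left out on 564 Igi 4 months replicate 1 because its spot was uneven, went from -0.17 to 2.61 over the other 11 arrays.

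Not every long run behaved in this way. M400002502 has the longest run, of 11 bases, and its log2 ratios lay between 2.97 and 3.87 with an SD of 0.29. Its Cy3 intensity was 2590 to 5480, far brighter than M400014438, and its C57BL/6 values of 3.09 and 3.36 lay inside the range of the 564 Igi arrays. M300010316, also bright at 1020 to 2520, ranged from 0.34 to 1.67 only. M200005312 was high on C57BL/6 replicate 1 at 1.71 but stood at 0.15 on replicate 2, with 0.75 and 0.86 on 564 Igi 8 months replicate 3 and 12 months replicate 4. Its 8 other values lay between -0.52 and -0.19, so the C57BL/6 arrays differed from each other here by more than replicate 2 differed from the low arrays.

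The phase of the run went with the size of the deviation. Among runs of exactly 8 bases, the median SD over arrays was 0.81 for CCTAACCC (n = 13) and 0.43 for CCCTAACC (n = 22). It was 0.38 for ACCCTAAC (n = 20), 0.31 for CTAACCCT (n = 23), 0.21 for AACCCTAA (n = 17) and 0.16 for TAACCCTA (n = 6). These values do not hold the position of the run constant. For AACCCTAA the median SD was 0.63 in the 5′ section (n = 3), 0.28 in the middle (n = 5) and 0.20 in the 3′ section (n = 9). The value for TAACCCTA equals the median of all oligos, and 0 of these 6 exceeded 0.5, against 9 of the 13 with CCTAACCC. The pair of examples differs in this way, and also in position. The run lies at bases 35 to 42 in M200002760 and at 47 to 54, in the 3′ section, in M200000086. M200002760, with CCTAACCC, had log2 ratios of 1.98 and 1.80 in C57BL/6, of -0.42, -0.18 and -0.47 in 564 Igi at 4 months, of -0.54, -0.03 and 1.24 at 8 months and of 0.00, -0.39, -0.57 and 1.82 at 12 months. M200000086, with TAACCCTA and also dim, at Cy3 intensities of 156 to 256, had -0.26 and -0.65 in C57BL/6, which were its lowest values, and reached 0.33 at most.

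The phases that varied most have the 7 bases CCTAACC in common, searched on the strand printed and not on its complement. This division was made after the values were seen. CCTAACC lies within the run of 52 C-rich oligos, all of which were tested, and is absent from the run of 92, of which 80 were tested. With it, the median deviation was 1.08 on C57BL/6 replicate 1, 0.67 on replicate 2, 0.45 on 564 Igi 8 months replicate 3 and 1.12 on 12 months replicate 4 (n = 50). Without it, the same arrays had 0.53, 0.04, 0.12 and 0.20 (n = 80). Over all run lengths, the oligos without CCTAACC thus had a median above 0.5 on C57BL/6 replicate 1 and on none of the other 11 arrays. This did not hold for the longer runs. Among runs of 9 bases or more, the medians on these arrays were 1.08, 1.07, 0.58 and 1.33 with CCTAACC (n = 15) and 0.91, 0.23, 0.42 and 0.90 without it (n = 14), about as high on 564 Igi 12 months replicate 4 as on C57BL/6 replicate 1. CCTAACC alone did not carry the pattern in the medians. Oligos whose longest run is CCTAACC itself, 7 bases, had medians of 0.13, 0.03, -0.01 and 0.03 (n = 29). Of these 29, 3 exceeded an SD of 0.5 over the arrays (10.3%, against 3.05% of all oligos). CCTAACC occurs in 0.276% of all oligos, and its complement GGTTAGG in 0.173%. G-rich oligos whose run holds GGTTAGG had medians between -0.06 and 0.03 on the 12 arrays (n = 26).

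The position of the run in the oligo also went with the size of the deviation. With the midpoint in the 5′, middle and 3′ section, the median SD over arrays was 0.44, 0.46 and 0.25, and 17 of 38, 24 of 52 and 12 of 40 oligos exceeded 0.5. On C57BL/6 replicate 1 the medians of the 3 sections were 0.86, 0.82 and 0.24, and on 564 Igi 12 months replicate 4 they were 0.68, 0.58 and 0.20. Runs near the 3′ end were thus the least variable. Where the run reached into the last 6 bases the median SD was 0.15 (n = 11, 2 above 0.5), and where it began in the first 6 bases it was 0.52 (n = 16, 8 above 0.5). The run held CCTAACC in similar shares of the 3 sections, 14 of 38, 20 of 52 and 16 of 40 oligos. In the 3′ section, oligos with CCTAACC in the run still had medians of 0.84 and 1.04 on those 2 arrays (n = 16), while oligos without it had 0.02 and 0.14 (n = 24). In the 5′ section the corresponding medians were 0.95 and 0.95 with CCTAACC (n = 14) and 0.80 and 0.35 without it (n = 24).

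The brightest members varied least, and those of intermediate brightness most. Ordered by their median Cy3 intensity over the arrays, 4 bins of about equal size, from dim to bright, had a median SD of 0.31, 0.95, 0.48 and 0.25. The second bin had median intensities of 126 to 262, and 25 of its 32 oligos exceeded an SD of 0.5. The fourth had 910 to 51500, and 1 of its 33 did. On C57BL/6 replicate 1 the second bin lay 910 intensity units above each oligo's own median over the arrays, on replicate 2 407 units, on 564 Igi 8 months replicate 3 453 units and on 12 months replicate 4 539 units. The third bin lay 574, 260, 337 and 433 units above, so the excess in intensity was of the same order in both bins although the third was brighter. The fourth, brightest bin had 398 and 534 units on C57BL/6 replicate 2 and 564 Igi 8 months replicate 3, but -125 and -157 on C57BL/6 replicate 1 and 12 months replicate 4. In the dimmest bin, with medians of 67.8 to 123, the excess was 144 units on C57BL/6 replicate 1 and -6.09, 19.8 and 0.83 units on the other three. These intensities are raw and carry each array's own scale. Among the 50 oligos whose run holds CCTAACC and that had a value on every array, all of those with an SD above 0.5 had a median Cy3 intensity under 900, namely 30 of 36, against 0 of 14 brighter ones. The cut at 900 was not set in advance, and the division by CCTAACC was made after the values were seen.

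Members of low GC content varied more than those of high GC content. Divided at 48% GC, the members at or below it had a median SD over arrays of 0.54 (n = 40, 52.5% above 0.5) and those over it 0.33 (n = 90, 35.6% above 0.5). The medians on C57BL/6 replicates 1 and 2, 564 Igi 8 months replicate 3 and 12 months replicate 4 were 1.19, 0.47, 0.41 and 0.78 in the first and 0.53, 0.06, 0.19 and 0.35 in the second. Over all oligos, the bins of lowest and highest GC content had a median SD of 0.17 and 0.16. The cut at 48% was not set in advance. How far brightness, phase, position and GC content overlap among the members was not tested.

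Near-identical oligos allow a comparison with most of the sequence held the same. M400006882 and M400007173 differ at 3 of 60 positions and hold the same run, CTAACCCT, which lacks CCTAACC, at the same place. On C57BL/6 replicate 1 they had log2 ratios of 2.31 and 2.36, on replicate 2 of 1.18 and 1.99, on 564 Igi 8 months replicate 3 of 1.50 and 1.38 and on 12 months replicate 4 of 1.91 and 2.05. Over the other 8 arrays they lay between -0.11 and 0.71, so the pair repeated the pattern of the set. M400011408 and M400012527 also differ at 3 of 60 positions, and the difference at the end of the run shortens it from AACCCTAACC to AACCCTAAC. M400012527, with 10 bases, had Cy3 intensities of 1050 and 536 in C57BL/6, 579 on 564 Igi 8 months replicate 3 and 664 on 12 months replicate 4, and of at most 176 elsewhere. M400011408, with 9 bases and no CCTAACC, had 155 and 59.0 in C57BL/6, 73.5 and 61.6 on the same 564 Igi arrays and 59.7 to 72.7 elsewhere, and was too dim to be tested. The 9-base oligo stood apart from its other arrays on C57BL/6 replicate 1 only. M400000306 and M400008611, which share 38 bases with CCCTAACC inside, were bright, with Cy3 intensities of 7100 to 14200. Their log2 ratios ranged over 0.68 and 0.76, with C57BL/6 at 0.04 and -0.06 in the first and at -0.08 and -0.14 in the second.

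The Cy5 channel holds the reference RNA, which was labelled as the same material on every array. With each channel normalised between arrays by quantiles, the C-rich oligos deviated in Cy3 by 0.87, 0.19, 0.31 and 0.46 on C57BL/6 replicates 1 and 2, 564 Igi 8 months replicate 3 and 12 months replicate 4. In Cy5 they deviated by 0.22, 0.07, 0.17 and 0.15 on the same arrays, and by -0.15 to -0.03 on the other 8. For runs of 9 bases or more the Cy3 medians were 1.44, 0.69, 0.86 and 1.24 and the Cy5 medians 0.32, 0.22, 0.30 and 0.28, with -0.24 to 0.01 in Cy5 elsewhere. The reference channel was thus higher on these 4 arrays than on the other 8, by less than the sample channel. The log2 ratio holds the difference of both. On C57BL/6 replicate 2 the Cy5 median of 0.07 was close to the 0.04 of the G-rich oligos and the 0.03 of all oligos. In raw Cy5 intensity M400014438 had 394 on C57BL/6 replicate 2, 403 on 564 Igi 8 months replicate 3 and 505 on 12 months replicate 4, above the 154 to 282 of the other 8 arrays, whereas C57BL/6 replicate 1, at 267, lay within them. Dye and RNA source cannot be told apart in these values, since the dyes were not swapped.

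Both strains were sampled at 4 months only, and there the comparison asks how the C-rich oligos differed between the knock-in and its background strain. Over the 132 tested, the median of the log2 fold changes was -0.54 and the quartiles -1.70 and -0.11, and 108 of 132 were lower in 564 Igi. With median centring in place of loess the median was -0.30 with 84 of 132 lower, while that of all oligos moved to 0.22, so relative to all oligos the members stood at -0.52. None of the 132 passed an adjusted p of 0.05 in limma, where 18 of all 26279 oligos passed as higher and 89 as lower (0.407% together), and the smallest adjusted p was 0.0886. At an unadjusted p under 0.05 limma gave 67 members, 66 of them lower (50.8%, against 12.6% of all oligos). The arrays did not overlap, with 564 Igi lower, in 70 of 130 members (53.8%, against 16.6%), and with 564 Igi higher in 8 (6.15%, against 18.1%). The median was -1.32 over the 30 oligos with runs of 9 bases or more, -1.60 over the 52 with CCTAACC in the run and -0.29 over the 80 without it. It was 0.01 over oligos with runs of 7 bases, 0.06 over the 64 G-rich oligos and 0.01 over all oligos tested. Limma called 0 of the 64 G-rich oligos, with 2 at an unadjusted p under 0.05. Of the 277 tested oligos with C-rich runs of 7 bases it called 0. At an unadjusted p under 0.05 limma gave 52 of these 277 (18.8%, against 12.6% of all oligos), 40 of them lower in 564 Igi.

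The count of 0 members called at 4 months depended on which arrays entered the fit. All 12 arrays shared 1 estimate of each oligo's spread. Without 564 Igi 12 months replicate 4, limma called 37 of the 132 C-rich oligos in the 4-month comparison, all lower in 564 Igi (28.0%, against 0.784% of all oligos), by a median log2 fold change of -2.01 (4.03-fold). Of the 37, 25 held CCTAACC in the run and 14 had runs of 9 bases or more. The largest of these differences was in M200010292, at -2.83 (SE 0.42, limma adjusted p = 0.0121), from 2.60 ± 0.08 (SD, n = 2) in C57BL/6 to -0.23 ± 0.25 (SD, n = 3) in 564 Igi. With all 12 arrays its difference is the same and its SE 0.63 (limma adjusted p = 0.115). Without 564 Igi 12 months replicate 4, limma also called 9 of the 277 oligos with C-rich runs of 7 bases and 0 of the 64 G-rich oligos. With only the 2 groups compared in the fit, limma called 42 members, all lower in 564 Igi (0.750% of all oligos called). Without C57BL/6 replicate 2 it called 5 (0.438% of all oligos), without 564 Igi 12 months replicate 2 it called 1 (0.419%), and without each of the other 9 arrays 0. The median of the set moved to -0.34 without C57BL/6 replicate 1 and to -0.93 without replicate 2. Slide 2 alone, with 1 array per group, gave -0.82. With slide as a block in the fit, the median was -0.53 with 105 of 132 lower. Limma then called 0 members (0.331% of all oligos).

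M400015806 holds CTAACCCT at positions 29 to 36 counted from the 5′ end (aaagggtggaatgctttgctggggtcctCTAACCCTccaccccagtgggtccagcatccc). It had the smallest adjusted p among the members at 4 and at 8 months. Its log2 ratios were 2.18 and 2.26 in C57BL/6, 1.16, 1.35 and 1.45 at 4 months, 1.00, 1.38 and 1.51 at 8 months and 1.98, 1.31, 1.78 and 1.68 at 12 months. The C57BL/6 arrays lay above all 10 arrays of 564 Igi mice. Its 4-month difference was -0.90 (SE 0.19, limma adjusted p = 0.0886) and its 8-month difference -0.92 (SE 0.19, limma adjusted p = 0.0597), neither past the threshold.

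Against the same C57BL/6 arrays, the older 564 Igi groups gave smaller medians, and age and strain cannot be told apart in these comparisons because C57BL/6 was sampled at 4 months only. At 8 months the median was -0.51, with 111 of 132 lower, -1.16 over the oligos with CCTAACC and -0.93 over runs of 9 bases or more, against 0.05 for the G-rich oligos. Limma called 0 members (0.624% of all oligos) with a smallest adjusted p of 0.0597, and 62 had an unadjusted p under 0.05, 58 of them lower (14.0% of all oligos). The arrays did not overlap, with 564 Igi lower, in 56 of 130 (43.1%, against 15.2%), and with 564 Igi higher in 9 (6.92%, against 13.6%). At 12 months the median was -0.42, with 106 of 132 lower, -0.97 over the oligos with CCTAACC and -0.91 over runs of 9 bases or more, against 0.06 for the G-rich oligos. Limma called 0 members (0.906% of all oligos) with a smallest adjusted p of 0.0727, in M200000086, which was higher in 564 Igi, and 55 had an unadjusted p under 0.05, 51 of them lower (12.7% of all oligos). Only 15 of 130 did not overlap with 564 Igi lower (11.5%, against 10.1% of all oligos), a share near that of all oligos, and 5 with 564 Igi higher (3.85%, against 10.2%).

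Single arrays weighed on these comparisons as well. At 12 months limma called 35 members without 564 Igi 12 months replicate 4, all lower in 564 Igi (1.08% of all oligos called), 5 without C57BL/6 replicate 2, all lower (0.606%), and 1 without C57BL/6 replicate 1, which was higher in 564 Igi (0.808%). At 8 months it called 5 without 564 Igi 12 months replicate 4 (0.959% of all oligos called), 5 without C57BL/6 replicate 2 (0.457%), 2 without 564 Igi 8 months replicate 2, of which 1 was higher in 564 Igi (2.2%), 1 without 564 Igi 12 months replicate 1 (0.586%) and 1 without its replicate 2 (0.491%), the others all being lower in 564 Igi. With median centring the median was -0.36 at 8 months and -0.42 at 12 months, and relative to all oligos -0.44 and -0.42. The 8-month median moved to -0.20 and the 12-month median to -0.19 without C57BL/6 replicate 1, and to -0.81 and -0.69 without C57BL/6 replicate 2. On slide 2 the medians were -0.75 at 8 months and -0.74 at 12 months, and on slide 3 they were -0.13 and -0.12. The difference from C57BL/6 was thus several times larger on slide 2, which held C57BL/6 replicate 1, than on slide 3. Slide 3 held C57BL/6 replicate 2. It also held 564 Igi 8 months replicate 3 and 12 months replicate 4, on which the members stood high.

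Between ages of 564 Igi no difference passed the test. From 4 to 8 months the median log2 difference was 0.14, with 31 of 132 below 0, and limma called 0 members, as it did for all oligos (0.0% called). At an unadjusted p under 0.05 there were 2 members (3.14% of all oligos). The arrays did not overlap, with the older mice higher, in 8 members (6.15%, against 4.26%), and lower in 3 (2.31%, against 4.96%). From 4 to 12 months the median was 0.25, with 30 of 132 below 0, 0 members called (0.00381% of all oligos) and 4 at an unadjusted p under 0.05 (7.64% of all oligos). There, 5 members did not overlap with the older mice higher (3.85%, against 4.45%) and 0 with them lower (4.37% of all oligos). From 8 to 12 months it was 0.04, with 50 of 132 below 0, 0 called (0.0% of all oligos) and 4 at an unadjusted p under 0.05 (4.22% of all oligos), and 3 members were higher without overlap (2.31%, against 2.6%) and 2 lower (1.54%, against 2.02%). Each of the first 2 medians came down to 0.05 without a single array, 564 Igi 8 months replicate 3 in the first and 564 Igi 12 months replicate 4 in the second. The third was -0.12 without 564 Igi 12 months replicate 4 and 0.22 without 564 Igi 8 months replicate 3. With median centring, the median from 4 to 12 months was 0.00 with 67 of 132 below 0, and that from 4 to 8 months 0.05 with 63 of 132 below 0. That centring moved the median of all oligos to -0.24 and -0.13 in these comparisons, and relative to it the members stood at 0.23 and 0.17. From 8 to 12 months they had -0.07, and 0.03 relative to all oligos. Within slides, the differences were -0.01 and 0.09 for 8 against 4 months, 0.12 and 0.04 for 12 against 4 months, and 0.13, -0.08 and -0.15 for 12 against 8 months.

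As a set, the G-rich oligos gave a different picture at the same run lengths. M400016534, with 11 bases, lay between -0.60 and -0.07, and its C57BL/6 values of -0.23 and -0.18 fell inside the range of the 564 Igi arrays. Its highest values were nevertheless on the arrays on which the C-rich oligos stood high. These were -0.07 on 564 Igi 12 months replicate 4, -0.17 on 8 months replicate 3 and the 2 C57BL/6 values. The next value, -0.24 on 564 Igi 4 months replicate 2, was close to them. M200000657 and M200000283, bright and with 9 bases, had SDs over the arrays of 0.16 and 0.12, and M200000031 had 0.31. One G-rich oligo, M400018593, passed the threshold. Its sequence is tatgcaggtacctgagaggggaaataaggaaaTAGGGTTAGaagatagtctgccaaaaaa. Log2 ratios were -0.09 and 0.05 in C57BL/6 and 0.65, 0.70, 0.54 and 0.63 in 564 Igi at 12 months, and the difference was 0.65 (SE 0.12, limma adjusted p = 0.0267, with 0.906% of all oligos called). Its 4-month and 8-month 564 Igi arrays had -0.02 to 0.41, and 564 Igi 12 months replicate 4 lay among the other 12-month arrays. Whether the C-rich set as a whole differed from the G-rich set was not tested, since the oligos of a set are not replicates of a condition.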

How the data were processed

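Spot brightness was deposited by the authors as intensity columns (mean signal and median local background per spot and channel, linear scale, unnormalized), made per the file headers with Agilent Feature Extraction 11.5.1.1. The deposited log ratio per spot is log10 of Cy5 over Cy3 after the scanner software's background removal and lowess (smooth factor 0.25, per the file headers). It was used, with sign turned and as log2, only as an alternative.

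Intensities were corrected with normexp (offset 50) and normalized by loess within arrays in limma 3.58.1 (R 4.3.3), control spots at weight 0. Spots of uneven background took their array's median background in the normexp fit. Spots of uneven background or uneven signal were then left out, 17 to 80 oligo spots per array. Values are log2 of sample over reference, averaged over spots of 1 oligo. A single lmFit and eBayes fit held all 12 arrays, with 1 coefficient for each group, leaving 8 degrees of freedom plus 3.71 from the prior, and a Benjamini-Hochberg adjusted p under 0.05 over 26279 oligos was the threshold. Tested on simulated data for the 4-month comparison (25999 oligos), the fit recovered 75 of 100 oligos changed by 1 and 95 of 100 changed by 2 on the log2 scale, with 6 false calls. The changed oligos were drawn at random from all oligos, with independent noise. The C-rich oligos were noisier, with a median SE of 0.295 against 0.141 over all oligos, so these rates do not describe them. Named oligos are the 8 longest C-rich and 4 longest G-rich runs (ties by lower identifier), members past the threshold, and the 2 members with the largest range. Others are named as chosen after their values were seen. M400015806 and M400018593 are among these. Alternatives covered background correction, normalization, channel, filter, run length, arrays in the fit, blocks and each array left out. The members, lists and rules were chosen with earlier results of these data known. Descriptive values were computed with Python 3.11.15 and pandas 2.3.3.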

Additional observations from a re-analysis of the deposited data

Results flagged for a closer look

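Among 18 groups of 4 arrays examined, all of them the 12-month 564 Igi group for different measures, 3 had 1 array far from the other 3, and chance gives about 1 in 20 such groups. The median deviation of the C-rich oligos was 0.44 on 564 Igi 12 months replicate 4, and its gap to the next array was 0.90 of the group's range. The log2 ratio of M200005312 was 0.86 on the same array, with a gap of 0.84 of the range. The log2 ratio of M400016534, a G-rich oligo, was -0.07 on that array, with a gap of 0.97 of the range.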

How the results depend on the processing

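The number of C-rich oligos called was 0, as in the report, under 134 of 150 alternatives over the 6 comparisons, among them all 25 of each comparison between ages. Part of this tally was fixed in advance. Runs of at least 9 and of at least 10 bases were read from the same fit as subsets of a count of 0. Leaving out oligos with both runs removed 0 oligos and could change no value. With the replicate block it was 14 at 4 months, 1 at 8 months and 15 at 12 months against C57BL/6, all lower in 564 Igi, while 0.422%, 0.624% and 0.807% of all oligos were called. Same-numbered arrays correlated at r = -0.23 to 0.29 in their deviations from the group means (median -0.04, 5 of 15 pairs over 0.1). Differently numbered arrays correlated at r = -0.38 to 0.30 (median 0.00, 13 of 38 pairs over 0.1). The replicate numbers thus showed no clear pairing, but with so few arrays a weak one could be missed. With only the 2 groups compared in the fit, 42 were called at 4 months, and from the scanner's processed log ratios 1 was called at 12 months, higher in 564 Igi. Leaving out each array gave 0 to 37, 0 to 5 and 0 to 35 calls at 4, 8 and 12 months against C57BL/6. Median log2 fold changes kept their sign in all alternatives except from 8 to 12 months, where 5 of 24 turned it, and from 4 to 12 months, where 1 of 24 did (median centring, 0.00 with 67 of 132 below 0). Leaving out each array gave medians of -0.93 to -0.34, -0.81 to -0.20 and -0.69 to -0.19 against C57BL/6, and of 0.05 to 0.27, 0.05 to 0.33 and -0.12 to 0.22 between 4 and 8, 4 and 12, and 8 and 12 months. Runs of at least 9 bases gave -1.32, -0.93 and -0.91 against C57BL/6 and 0.52 from 4 to 12 months. Runs of at least 10 bases gave -1.66, -1.10 and -1.15, and 0.49 and 0.61 from 4 months to 8 and to 12 months. The deviation per array for runs of at least 9 bases was 1.01 and 0.62 on C57BL/6 replicates 1 and 2, -0.55 and -0.51 on 564 Igi 4 months replicates 1 and 2, -0.58 on 8 months replicate 1, and -0.51 and 1.13 on 12 months replicates 3 and 4. For runs of at least 10 bases it was 1.40 and 0.61 on C57BL/6, -0.79, -0.51 and -0.49 at 4 months, -0.58 and 0.61 on 8 months replicates 1 and 3, and -0.54 and 0.96 on 12 months replicates 3 and 4. With median centring in place of loess, 564 Igi 12 months replicate 4 had 0.10, where all oligos had -0.26. The sign of an array's deviation turned in 3 of 120 alternatives, all under median centring. The causes of these changes were not tested. With 2 C57BL/6 arrays, dim spots and no dye swap, signal over background limits the dim members most.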
